A study of Mus musculus with 14 samples.

Results

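The 10 genes described here encode the zinc finger transcription factor Zfp281 and 9 subunits of Polycomb repressive complex 2 (PRC2): Ezh1, Ezh2, Suz12, Eed, Rbbp4, Mtf2, Phf19, Jarid2 and Aebp2. They are a set of named genes matched by symbol, picked with earlier results of these data known, and each matched 1 of the 23174 rows of a table of mouse RNA-seq expression. All 10 passed the filter on low values, among 13191 genes kept in the fits of the differentiation course and 12372 genes in the comparison of extraembryonic endoderm (XEN) lines with embryonic stem cells (ESCs). The question behind the series, by its title, is whether Zfp281 holds ESCs back from becoming XEN cells, the stem cells of the extraembryonic endoderm.

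The 14 libraries come from 6 cell lines, with 1 polyA library per line and stage. WT3 is a wild-type ESC line (3+/+), KO3.34 (3.34-/-) and KO2.6 are Zfp281 knockout lines, and Rescue3.34 is KO3.34 with Zfp281 put back. All 4 have the strain background 129S1/SVImJ, and each was sampled at 3 stages. The titles call the second knockout line 2.6 and its cell line field 2.26-/-. Stage ESC (passage 0) is feeder-free culture on gelatin with serum and leukemia inhibitory factor. Stage cXENp1 (passage 1) follows 48 hours in XEN medium with activin A (10 ng/mL) and all-trans retinoic acid (0.01 µM). Stage cXENp3 (passage 3) is again on gelatin in XEN medium, after passage 2 on iMEF feeders. XENB1 (129S1) and XEN5 (129S1/SVImJ) are wild-type XEN lines grown without feeders in conditioned XEN medium. WT3 and Rescue3.34 are called the Zfp281-present lines below. Each genotype rests on 1 or 2 lines, Rescue3.34 and KO3.34 share their origin, and the labels name neither the deleted part of Zfp281 nor what drives the rescue copy. The p-values therefore measure the spread between these libraries.

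PRC2 places methyl groups on lysine 27 of histone H3, a mark of repressed chromatin, and keeps genes of later lineages silent in ESCs. Either Ezh1 or Ezh2 supplies the catalytic site, and Eed, Suz12 and the histone-binding proteins Rbbp4 or Rbbp7 complete the core. Accessory subunits define the forms of the complex: the Polycomb-like proteins Phf1, Mtf2 and Phf19 belong to PRC2.1, and Jarid2 and Aebp2 to PRC2.2. Zfp281 binds G-rich DNA and is part of the transcription factor network of ESCs.

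In the table's mm9 coordinates, Zfp281 spans chr1:138521478-138526968, Ezh1 chr11:101052429-101087764 and Ezh2 chr6:47480273-47545029. Suz12 lies at chr11:79806608-79847625, Eed at chr7:97103164-97129486 and Rbbp4 at chr4:128964865-129012614. Of the accessory subunits, Mtf2 spans chr5:108494693-108538238, Phf19 chr2:34749275-34769496, Jarid2 chr13:44826143-45017012 and Aebp2 chr6:140571184-140625939. The values below are gene-level sums over each locus and name no exon or isoform.

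Promoter sequences of all 10 genes were found in RefSeq's table (build GRCm38.p6), as windows of 300 bases around each annotated start, on the strand of the gene. They were searched on both strands for 4 forms of the E2F motif, the site of cell cycle transcription factors (TTTCCCGC, TTTGGCGC, TTTCGCGC and TTTGCCGC), and for the G-rich motif GGGGAGGGG, which resembles sites of Zfp281. An E2F form was in the promoters of 3 of the 10 genes, Ezh2, Suz12 and Phf19, and in 2.6% of all 27025 genes of the table (2.26% of 32851 promoters). The G-rich motif was in 2 of the 10, Jarid2 (2 matches) and 1 of the Aebp2 promoters, and in 7.2% of all genes (6.37% of promoters). The windows of Ezh2 (chr6:47595001-47595280, minus strand), Suz12 (chr11:79992856-79993135, plus), Phf19 (chr2:34913947-34914226, minus) and a first start of Jarid2 (chr13:44730524-44730803, plus) show these matches in capitals. The window of Ezh1 (chr11:101226434-101226713, minus), the other catalytic subunit, is shown beside them and held neither motif. Each runs 5′ to 3′ from 250 bases before the start to 30 bases after it.
Ezh2: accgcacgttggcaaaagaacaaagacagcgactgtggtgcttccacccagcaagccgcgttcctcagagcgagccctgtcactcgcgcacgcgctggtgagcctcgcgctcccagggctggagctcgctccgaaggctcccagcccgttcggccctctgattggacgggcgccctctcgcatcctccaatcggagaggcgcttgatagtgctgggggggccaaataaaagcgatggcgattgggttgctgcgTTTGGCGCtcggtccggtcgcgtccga
Suz12: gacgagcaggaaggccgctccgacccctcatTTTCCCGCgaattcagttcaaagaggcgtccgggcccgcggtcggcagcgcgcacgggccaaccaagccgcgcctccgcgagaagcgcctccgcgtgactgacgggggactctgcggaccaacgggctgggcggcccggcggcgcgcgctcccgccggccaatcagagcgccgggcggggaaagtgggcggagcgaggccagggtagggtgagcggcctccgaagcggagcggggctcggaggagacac
Phf19: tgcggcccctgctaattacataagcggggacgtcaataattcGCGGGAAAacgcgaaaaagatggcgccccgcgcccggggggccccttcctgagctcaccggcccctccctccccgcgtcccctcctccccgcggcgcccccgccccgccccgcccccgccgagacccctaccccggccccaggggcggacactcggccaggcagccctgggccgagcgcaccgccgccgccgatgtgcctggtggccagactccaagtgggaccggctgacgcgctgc
Jarid2: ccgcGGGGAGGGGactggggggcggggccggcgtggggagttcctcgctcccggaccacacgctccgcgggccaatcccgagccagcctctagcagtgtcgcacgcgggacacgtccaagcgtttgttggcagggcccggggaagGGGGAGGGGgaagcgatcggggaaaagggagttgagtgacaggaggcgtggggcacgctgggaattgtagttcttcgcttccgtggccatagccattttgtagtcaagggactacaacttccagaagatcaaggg
Ezh1: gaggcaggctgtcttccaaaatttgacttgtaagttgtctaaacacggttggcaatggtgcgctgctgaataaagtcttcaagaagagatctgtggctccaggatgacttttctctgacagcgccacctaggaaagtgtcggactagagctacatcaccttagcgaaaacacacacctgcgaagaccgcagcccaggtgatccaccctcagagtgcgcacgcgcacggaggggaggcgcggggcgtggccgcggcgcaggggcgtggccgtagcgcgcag

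The match in Ezh2 begins 4 bases after the start, that in Suz12 219 bases before it, and that in Phf19 208 bases before it on the opposite strand. The stretch after an annotated start was found in a reference transcript of the gene for the other 9 members but not for Phf19. The start and strand of Phf19 thus rest on the table alone. The result of this check was kept per gene and not per start. For Jarid2, Mtf2 and Aebp2, which have several starts, it does not cover each of them. The Jarid2 start shown and the Aebp2 start with the G-rich motif may therefore also rest on the table alone. The Jarid2 matches begin 246 and 105 bases before the start. A match is a run of letters, and no binding was measured here.

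The values are FPKM (fragments per kilobase of transcript, scaled to sequencing depth) as deposited, summed to between 424406 and 718138 per library, with depth unknown. The sums differed by stage, at 678479 to 718138 in ESC and 424406 to 520485 at cXENp1. Differences are on the log2(FPKM + 1) scale from limma, and a gene was called at an adjusted p under 0.05 over all genes tested. The libraries were checked against markers of 3 cell types. The 6 pluripotency genes summed to 2109 and 3626 FPKM in the Zfp281-present lines at cXENp3, near the 2575 to 3207 of the ESC libraries, against 91.7 and 415 in the KO lines and 0.159 and 13.8 in XEN lines. The 9 XEN genes summed to 6.46 and 13.9 FPKM in the Zfp281-present lines at cXENp3 and to 942 and 1168 in the KO lines, beside 1026 and 1411 in XEN lines. The libraries labelled cXENp3 of WT3 and Rescue3.34 thus went against the labelled XEN identity. KO against Zfp281-present at cXENp3 therefore also compares libraries high in XEN markers with libraries high in pluripotency markers. At cXENp1 the pluripotency genes summed to 60.7 to 106 FPKM in the 4 lines. The XEN genes summed there to 524 in KO2.6 against 40.7 (KO3.34), 49.5 (WT3) and 45.1 (Rescue3.34). In ESC they summed to 62.7 in KO2.6 against 7.79 (KO3.34), 2.07 (WT3) and 2.78 (Rescue3.34). The KO lines grouped together at these stages thus differed in XEN markers. The 8 fibroblast genes summed to 1247 FPKM in Rescue3.34 at cXENp3, 33.4 in WT3, 272 and 347 in the KO lines, and 544 and 624 in XEN lines, against 1.65 to 16.8 in ESC. Of the 7 fibroblast genes tested in XEN lines against ESC, all but Thy1 passed the filter only through the XEN libraries. Calls of these genes are therefore no support. The part of fibroblast genes in the differences of the subunits there was not tested. The descriptions of 3 ESC libraries (WT3, KO3.34, Rescue3.34) carry the prefix JH and the other 11 libraries XH, so within XH stage ESC is KO2.6 alone.

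**Figure D1:**
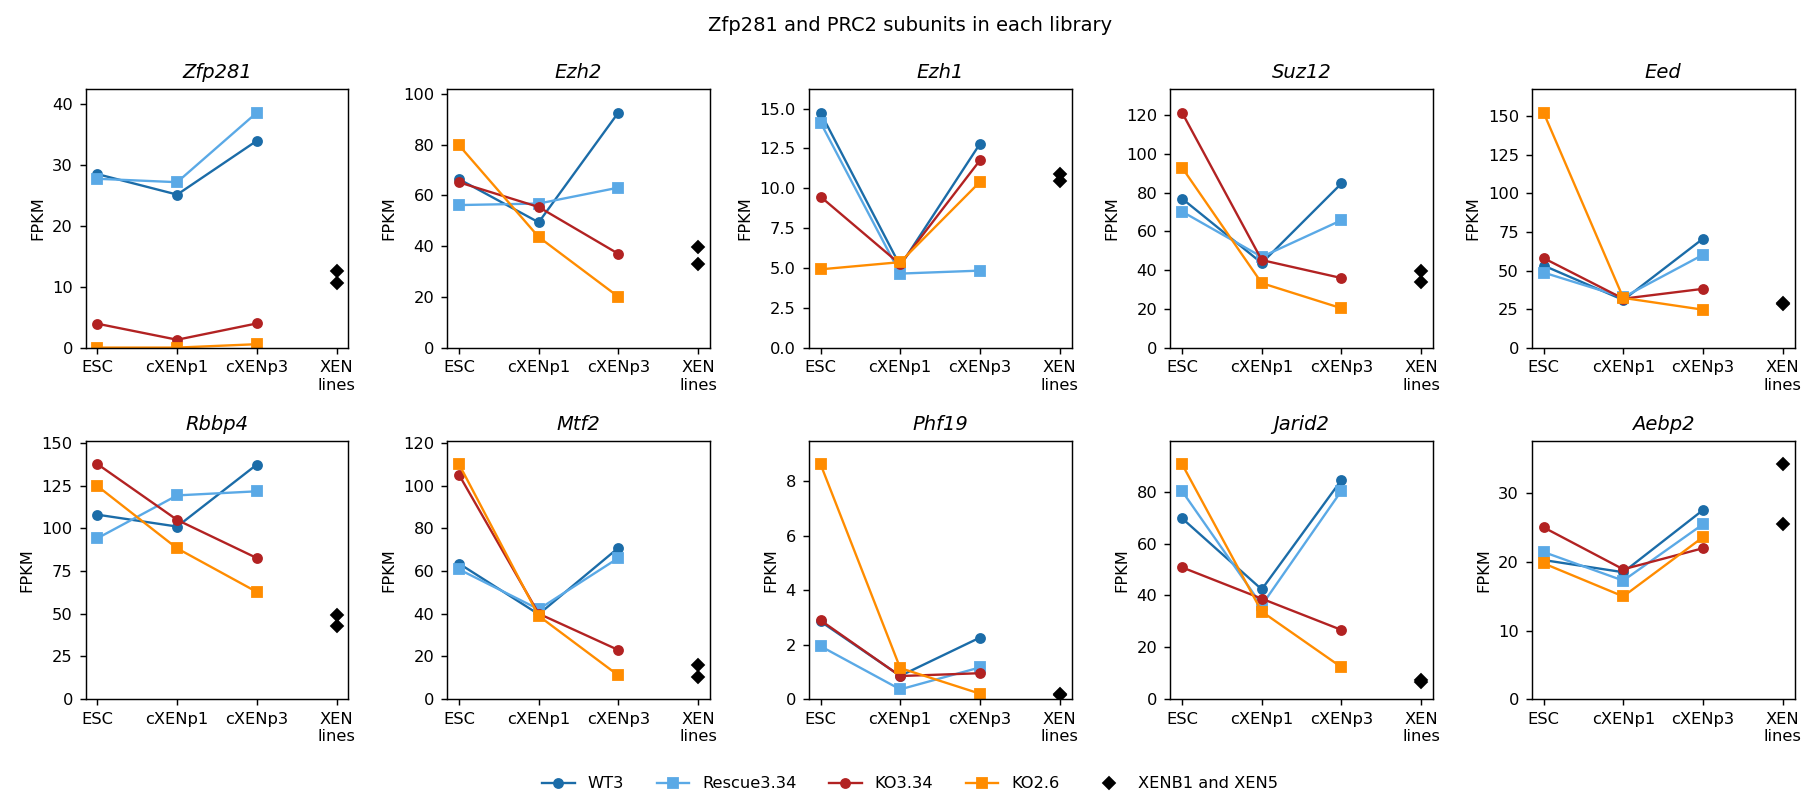
Expression of the 10 genes (FPKM, linear axes from 0) in each of the 14 libraries, with lines joining the stages of 1 cell line and black diamonds for the XEN lines. Ezh2, Suz12, Eed, Rbbp4, Mtf2, Phf19 and Jarid2 lay lower in both KO lines than in both Zfp281-present lines at cXENp3. So did Aebp2, within 22.0 to 27.6 FPKM in all 4. The share of all genes that separate in this way was not counted.

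Zfp281 was measured first, as a check of the genotypes. In ESC it stood at 28.5 FPKM (WT3), 27.7 (Rescue3.34), 3.92 (KO3.34) and 0 (KO2.6). At cXENp1 the values were 25.1, 27.2, 1.29 and 0 FPKM in the same order, and at cXENp3 34.0, 38.6, 3.96 and 0.559. The KO libraries lay below the Zfp281-present libraries at every stage, and KO3.34 kept a low level that KO2.6 did not show at ESC and cXENp1. The KO minus Zfp281-present difference was -3.71 ± 0.72 (SE) in ESC, -4.16 ± 0.72 at cXENp1 and -3.74 ± 0.72 at cXENp3, with adjusted p of 0.0380, 0.0413 and 0.00319. Over the course, Zfp281 was lower in KO lines than in WT3, at -3.83 (adjusted p = 0.0158) and higher in Rescue3.34 than in KO lines by 3.91 (adjusted p = 0.0162). It was the 1 member called in KO against WT, where 0.599% of all genes were called, and in Rescue against KO, where 0.447% were. Both calls were lost with any stage left out, and that in KO against WT also without Rescue3.34. No member was called between Rescue3.34 and WT3, where limma called 0% of genes and no member had an unadjusted p under 0.05. WT3 and Rescue3.34 are 1 line each, so their libraries over the stages stand in for replicates in these 3 comparisons. Between Rescue3.34 and WT3, 61 of the 13191 genes fell below an unadjusted p of 0.05 in limma, fewer than that rate gives without any difference. With stage as a block, a KO difference that changes with stage counts as spread in this fit. The missing calls therefore do not show that Rescue3.34 matched WT3.

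XEN lines held less Zfp281 than the Zfp281-present lines at any stage, at 12.5 FPKM in XEN5 and 10.6 in XENB1. These levels lay above all 6 KO libraries. The test of XEN lines against ESC has both KO lines among its 4 ESC libraries and gave 0.64 ± 1.27 (SE) for Zfp281 (adjusted p = 0.714).

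The knockout left the PRC2 genes without a called change in ESC and at cXENp1. Zfp281 was the 1 member called in ESC, where 1.97% of all genes were called, and at cXENp1, where 0.485% were. At both stages the count was 0 without WT3 or without Rescue3.34. Without KO3.34 it was 4 in ESC (Zfp281, with Eed, Mtf2 and Phf19 higher). By cXENp3, 7 of the 10 genes were called, all lower in KO lines: Zfp281, Ezh2, Suz12, Eed, Rbbp4, Mtf2 and Jarid2. At that stage 19% of all genes were called lower and 41.9% in either direction, and the median difference was -1.25 over the 10 genes and 0.01 over all genes. Zfp281, the gene knocked out, is 1 of the 7 and counts in the median of the 10. Its own low level follows from the genotype and says nothing about the subunits. Quantile normalization put the median of all genes at -0.10, and 7 of the 10 were called there too. The count fell to 1 (Mtf2) without WT3, to 5 without Rescue3.34 and to 6 without KO2.6, and it was 8 without KO3.34. Where 1 library is left in an arm, it is assumed to vary like the other groups.

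Whether the knockout difference itself changed between ESC and cXENp3 was tested as an interaction. The interaction was called for 6 subunits, all with a lower KO level at cXENp3 relative to ESC, where 8.85% of all genes were called lower and 22.6% in either direction. The interaction was -2.81 for Mtf2 (adjusted p = 0.00303), -1.98 for Jarid2 (0.0204), -1.96 for Suz12 (0.0105), -1.94 for Eed (0.0294), -1.69 for Ezh2 (0.0213) and -1.21 for Rbbp4 (0.0172). Without WT3 or without Rescue3.34 no member was called in it, and without KO2.6 Suz12 and Mtf2 were. With the prefix as a term Ezh2 (adjusted p = 0.0528) and Jarid2 (adjusted p = 0.0512) were not called. The same interaction at cXENp1 called no member, with 0 at an unadjusted p under 0.05 and 0.0379% of all genes called by limma.

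**Figure D2:**
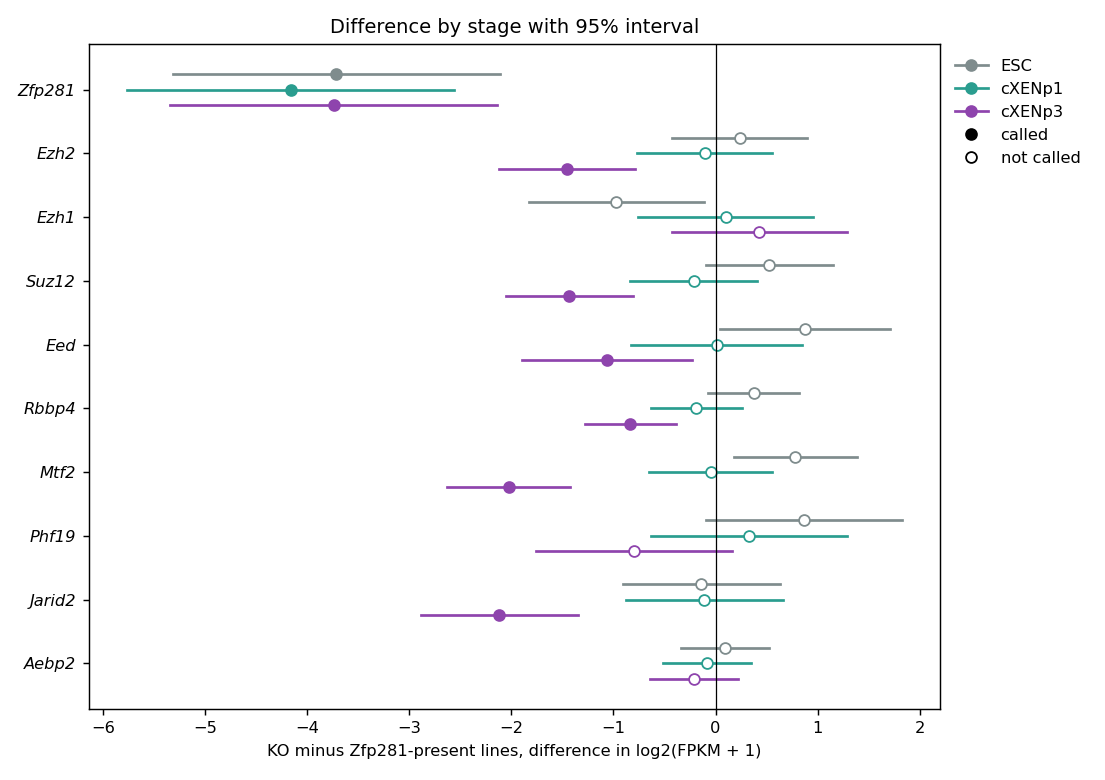
KO minus Zfp281-present difference in log2(FPKM + 1) for each of the 10 genes at ESC, cXENp1 and cXENp3, with 95% intervals from limma; filled points were called and open points were not. Zfp281 was called at all 3 stages, and Ezh2, Suz12, Eed, Rbbp4, Mtf2 and Jarid2 at cXENp3.

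The catalytic subunits went apart. Ezh2, the more active methyltransferase of dividing cells, stood at 66.4 FPKM (WT3), 56.2 (Rescue3.34), 65.2 (KO3.34) and 79.8 (KO2.6) in ESC. Its cXENp1 values were 49.4, 56.8, 55.4 and 43.6 FPKM in the same order, and its cXENp3 values 92.6, 63.0, 37.0 and 20.0. The 4 lines overlapped at the first stages, and at cXENp3 both KO lines lay below the lowest of the ESC libraries. Ezh2 was lower in KO lines there, at -1.45 ± 0.30 (SE, adjusted p = 0.00427). XEN lines held 39.6 (XEN5) and 32.9 FPKM (XENB1), below all 4 ESC libraries, at -0.86 ± 0.21 against ESC (adjusted p = 0.0136).

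Ezh1, the paralogue that is kept in cells that divide little, did not follow. It stood at 14.8 FPKM (WT3), 14.1 (Rescue3.34), 9.47 (KO3.34) and 4.91 (KO2.6) in ESC, at 5.13, 4.65, 5.23 and 5.36 at cXENp1, and at 12.8, 4.83, 11.7 and 10.4 at cXENp3. At cXENp1 the 4 lines lay within 1 FPKM of each other, and at cXENp3 the lowest library was Rescue3.34. The KO minus Zfp281-present difference was 0.43 ± 0.38 at cXENp3 (SE, adjusted p = 0.399) and turned to -0.19 without Rescue3.34. In ESC it was -0.97 ± 0.38 (adjusted p = 0.188), and the interaction was 1.40 (adjusted p = 0.0887), so neither passed the threshold. XEN lines held 10.9 and 10.5 FPKM, with a difference from ESC of 0.08 (adjusted p = 0.890).

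Because FPKM is scaled to transcript length, the share of Ezh1 in the sum of Ezh1 and Ezh2 can be set side by side. In ESC it was 18.2% (WT3), 20.1% (Rescue3.34), 12.7% (KO3.34) and 5.80% (KO2.6), and 7.56% to 11.0% at cXENp1. At cXENp3 it was 12.1% in WT3 and 7.12% in Rescue3.34, against 24.1% in KO3.34 and 34.2% in the KO2.6 line. Both KO lines thus stood above both Zfp281-present lines at cXENp3 and below them in ESC, and XEN lines, at 24.1% (XENB1) and 21.5% (XEN5), lay with or below the KO lines at cXENp3. These shares are levels of RNA per library and were not tested.

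**Figure D3:**
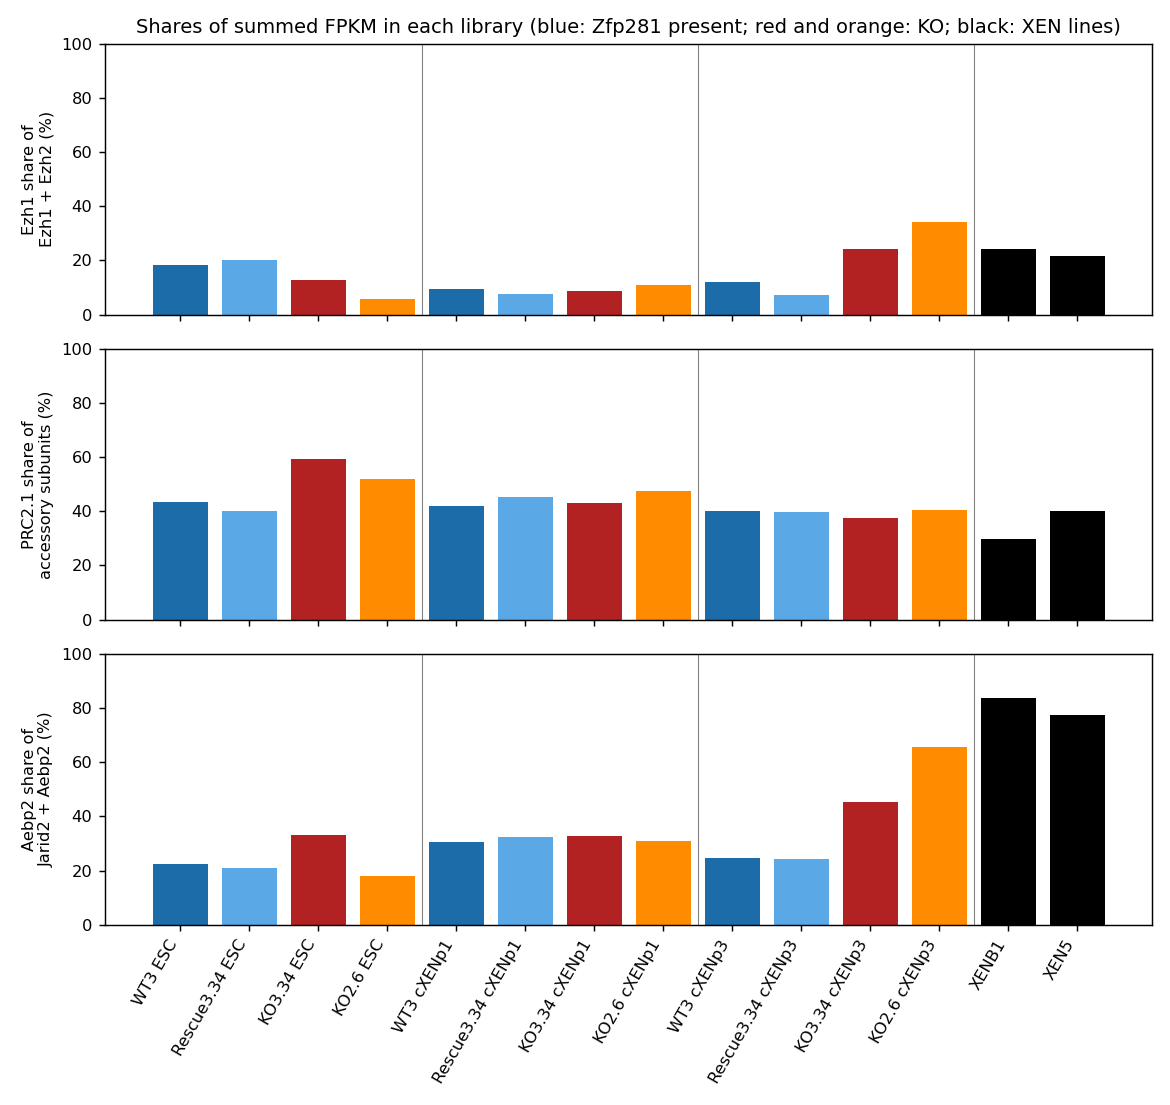
Shares of summed FPKM in each of the 14 libraries (bars from 0 to 100%). The top bars are Ezh1 in Ezh1 plus Ezh2, and the bottom bars Aebp2 in Jarid2 plus Aebp2. The middle bars are the PRC2.1 genes Mtf2, Phf19 and Phf1 in their sum with Jarid2 and Aebp2. E130012A19Rik, the gene of the PRC2.1 subunit Epop, is left out of that sum. The Aebp2 share was 24.1% and 24.6% in the Zfp281-present lines at cXENp3, 45.2% and 65.7% in the KO lines and 77.5% and 83.9% in XEN lines.

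Of the core, Suz12 is needed for a stable complex and Eed binds the methylated histone and stimulates the enzyme. Suz12 stood at 76.9 FPKM (WT3), 70.2 (Rescue3.34), 121 (KO3.34) and 92.9 (KO2.6) in ESC, at 43.6, 46.8, 45.2 and 33.3 at cXENp1, and at 84.7, 65.7, 35.9 and 20.3 at cXENp3. Its KO libraries were thus the highest in ESC and the lowest at cXENp3. The KO difference was 0.52 ± 0.28 in ESC (SE, adjusted p = 0.319) and -1.43 ± 0.28 at cXENp3 (adjusted p = 0.00346). Eed stood at 53.2 FPKM (WT3), 48.7 (Rescue3.34), 58.0 (KO3.34) and 152 (KO2.6) in ESC, at 30.9 to 32.6 in the 4 cXENp1 libraries, and at 70.6, 60.2, 38.1 and 24.6 at cXENp3. The KO2.6 ESC library stood far above the other 3 for this gene. Eed was lower in KO lines at cXENp3, at -1.07 ± 0.37 (adjusted p = 0.0437) and was not called there without Rescue3.34 or without WT3.

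Rbbp4, a WD-repeat protein that binds histones and serves other chromatin complexes as well, followed the same course. It stood at 108 FPKM (WT3), 94.3 (Rescue3.34), 138 (KO3.34) and 125 (KO2.6) in ESC, at 101, 119, 105 and 88.3 at cXENp1, and at 137, 122, 82.6 and 62.8 at cXENp3. It was lower in KO lines at cXENp3, at -0.84 ± 0.20 (SE, adjusted p = 0.00893), the smallest of the 7 called differences. In XEN lines, at 49.2 and 42.6 FPKM, Rbbp4 was lower than in ESC, at -1.31 ± 0.21 (adjusted p = 0.00226). Suz12, at 39.3 and 33.6 FPKM in XEN lines, was lower there, at -1.26 ± 0.25 (adjusted p = 0.00590). Eed, at 29.1 and 28.5 FPKM, had a difference from ESC of -1.24 ± 0.44 (adjusted p = 0.0541), just outside the threshold, and was called without KO2.6.

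Mtf2, a Polycomb-like protein that recruits PRC2 to CpG islands in ESCs, had the second largest KO difference of the subunits. It stood at 63.5 FPKM (WT3), 60.7 (Rescue3.34), 105 (KO3.34) and 110.0 (KO2.6) in ESC, at 39.0 to 42.1 in the 4 cXENp1 libraries, and at 70.8, 66.1, 23.0 and 11.1 at cXENp3. KO lines thus stood above the Zfp281-present lines in ESC, level with them at cXENp1 and below them at cXENp3. The difference was 0.78 ± 0.27 in ESC (SE, adjusted p = 0.139) and -2.03 ± 0.27 at cXENp3 (adjusted p = 0.000598). XEN lines held 15.8 and 10.3 FPKM, -2.58 ± 0.32 against ESC (adjusted p = 0.000674).

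Phf19, another Polycomb-like protein, was low throughout. It stood at 2.85 FPKM (WT3), 1.94 (Rescue3.34), 2.90 (KO3.34) and 8.63 (KO2.6) in ESC, at 0.357 to 1.14 at cXENp1, and at 2.26, 1.16, 0.952 and 0.200 at cXENp3. The KO difference at cXENp3 was -0.80 ± 0.43 (SE, adjusted p = 0.163) and was called without KO3.34 alone among the 4 lines. XEN lines, at 0.182 and 0.155 FPKM, lay below every course library, with -1.96 ± 0.45 against ESC (adjusted p = 0.0106). The added 1 on the log2 scale understates the differences of a gene this low.

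Jarid2, the PRC2.2 subunit that guides PRC2 to its sites in ESCs, had the largest KO difference among the subunits. It stood at 69.7 FPKM (WT3), 80.2 (Rescue3.34), 50.8 (KO3.34) and 90.6 (KO2.6) in ESC, at 42.3, 36.2, 38.7 and 33.8 at cXENp1, and at 84.5, 80.3, 26.7 and 12.3 at cXENp3. The ESC and cXENp1 libraries showed no order by genotype, and at cXENp3 the KO lines stood apart. The difference there was -2.12 ± 0.34 (SE, adjusted p = 0.00147). In XEN lines Jarid2 was at 7.41 and 6.60 FPKM, -3.18 ± 0.26 against ESC (adjusted p = 0.000101), which was the largest difference of any member in that comparison.

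Aebp2, its zinc finger partner in PRC2.2, had no called difference in any comparison. It stood at 19.8 to 25.0 FPKM in the 4 ESC libraries, 15.0 to 18.9 at cXENp1 and 22.0 to 27.6 at cXENp3, and at 25.6 and 34.3 in XEN5 and XENB1. The KO difference at cXENp3 was -0.21, with a 95% interval of -0.64 to 0.22 (adjusted p = 0.413), and the XEN difference 0.44 (interval -0.07 to 0.96, adjusted p = 0.147). The share of Aebp2 in the sum with Jarid2 was therefore 17.9% to 33.0% in ESC and 30.4% to 32.8% at cXENp1, and higher in the KO lines at cXENp3 and in XEN lines, as the plot of shares shows. Mtf2, Phf19 and Phf1 of PRC2.1 were set against their sum with Jarid2 and Aebp2. Their share was 40.0% to 59.3% in ESC, 37.7% to 40.6% at cXENp3, and 29.7% and 40.1% in XEN lines. It leaves out E130012A19Rik, the gene of the PRC2.1 subunit Epop, so it does not describe PRC2.1 as a whole. That gene was at 263 (XEN5) and 247 FPKM (XENB1). At cXENp3 it was at 255 (KO3.34), 232 (KO2.6), 106 (WT3) and 84.4 FPKM (Rescue3.34).

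Across the differentiation, with line as a block, all 10 genes had negative differences at cXENp1 against ESC, and 2 were called. Suz12 was lower, at -1.06 ± 0.35 (SE, adjusted p = 0.0496) and Phf19, at -1.35 ± 0.40 (adjusted p = 0.0315), where 13.8% of all genes were called lower and 28.5% in either direction. The median difference was -0.88 over the 10 genes and 0 over all genes. It was -0.10 over all genes with a mean of at least 5 FPKM. FPKM also summed lower in every cXENp1 library than in every ESC library. The count was 0 without WT3, KO3.34 or Rescue3.34, and without KO2.6 the 2 called were Ezh1 and Phf19. The call of Suz12 held with a pseudocount of 0.1 and under no other alternative run, with adjusted p from 0.0505 (no line block) to 0.174 (without KO3.34), and its difference was -0.80 after quantile normalization. Once the prefix was a term, Ezh1 turned from -0.86 (adjusted p = 0.0859) to 0.14. With that term the ESC level rests on the KO2.6 ESC library alone, and the differences were -2.63 for Eed and -2.68 for Phf19. For both genes that library stood far above the other ESC libraries. In bulk samples, fewer cells of a type and less RNA per cell cannot be told apart.

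No member was called at cXENp3 against ESC over the 4 lines, where 9.35% of all genes were called by limma and 3 members had an unadjusted p under 0.05: Suz12 (-0.96), Mtf2 (-1.27) and Phf19 (-1.17). Without WT3, Suz12 was called. None was called at cXENp3 against cXENp1, where 7.45% of all genes were called by limma and 3 members had an unadjusted p under 0.05: Zfp281 (0.67), Ezh1 (0.77) and Aebp2 (0.48). Both comparisons average over KO and Zfp281-present lines. From cXENp1 to cXENp3 the values of Ezh2, Suz12, Rbbp4, Mtf2 and Jarid2 were higher in both Zfp281-present lines and lower in both KO lines. The other members did not show this pattern, and the share of all genes that did was not counted.

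XEN lines against ESC called 6 of the 10 genes, all lower in XEN lines: Ezh2, Suz12, Rbbp4, Mtf2, Phf19 and Jarid2. In that comparison 19.7% of all genes were called lower and 41.9% in either direction, and the median difference of all genes was -0.02. Phf19 passed the filter through ESC libraries alone, so its call is no support, and 5 of the other 9 were called. The count was 3 without XENB1 (Rbbp4, Mtf2 and Jarid2) and 4 without XEN5 (these and Suz12), and 6 or 7 without each ESC line. The prefix as a term was an alternative added once the data had been seen. It leaves the ESC side to KO2.6 ESC alone, the 1 ESC library with the same prefix. That library is a Zfp281 knockout, so higher Zfp281 in XEN lines there follows from the genotype. Both XEN lines were lower than KO2.6 ESC for the 6 called genes and for Eed. For Eed and Phf19 that library stood far above the other ESC libraries.

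**Figure D4:**
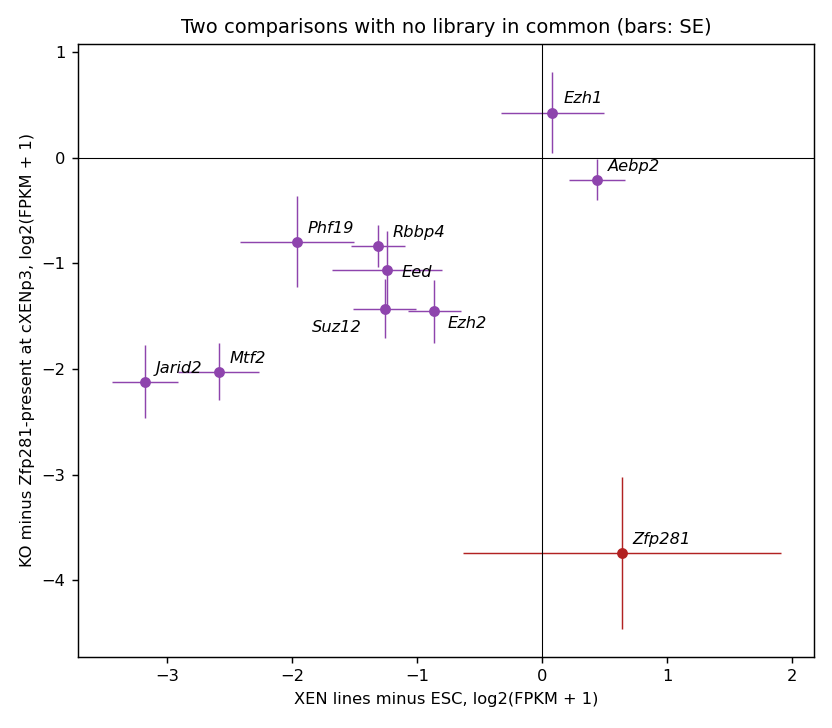
Differences of the 10 genes in log2(FPKM + 1), with bars of 1 SE, for XEN lines minus ESC (x axis) and KO minus Zfp281-present lines at cXENp3 (y axis). The compared libraries do not overlap, but WT3, Rescue3.34, KO3.34 and KO2.6 are on both axes. The SE of the y axis also draws on the spread of the ESC libraries. Jarid2 and Mtf2 had the largest negative differences of the PRC2 subunits on both axes, while Ezh1 (0.08 and 0.43) and Aebp2 (0.44 and -0.21) were called in neither comparison.

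The KO lines at cXENp3 were then set beside the XEN lines. No member was called, where 4.12% of all genes were called by limma and 3 members had an unadjusted p under 0.05. The difference of Jarid2 was 1.26, with a 95% interval of 0.54 to 1.99 (adjusted p = 0.0591), and that of Rbbp4 0.64, with an interval of 0.21 to 1.07 (adjusted p = 0.100). That of Zfp281 was -2.17 (adjusted p = 0.108), and it was called without KO2.6 and also without KO3.34. Jarid2 was at 26.7 (KO3.34) and 12.3 FPKM (KO2.6) in the KO lines and at 7.41 (XEN5) and 6.60 FPKM (XENB1) in XEN lines. Jarid2 was called without KO2.6 and with a pseudocount of 0.1. For Ezh2, Suz12, Eed, Mtf2, Phf19, Aebp2 and Ezh1 the 95% intervals of the difference held 0, and the widest of these, that of Phf19, ran from -0.51 to 1.29.

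Other genes of the PRC2 pathway were then read. Of 8 further PRC2 genes, 3 were called at cXENp3, all higher in the KO lines, a share near the 41.9% of all genes called there. Rbbp7, the paralogue of Rbbp4, stood at 144 FPKM (WT3), 137 (Rescue3.34), 243 (KO3.34) and 352 (KO2.6) at that stage, 1.05 ± 0.22 higher (SE, adjusted p = 0.00528). Phf1, the third Polycomb-like protein, was at 1.78, 2.41, 5.52 and 13.3 FPKM in the same order, 1.65 ± 0.39 higher (adjusted p = 0.00904). Lcor, whose product joins PRC2.1, was at 0.290, 0.310, 1.69 and 3.14 FPKM, and it passed the filter on low values through these KO libraries, with 1 other library (WT3 at cXENp1) above 1 FPKM, so its call is no support. Rbbp7 and Phf1 were not called without WT3 or without Rescue3.34, nor Phf1 without KO2.6. Both were also called in the interaction with ESC, at 1.21 for Rbbp7 (adjusted p = 0.0255) and 2.32 for Phf1 (adjusted p = 0.0190). Neither interaction was called without WT3, without KO2.6 or without Rescue3.34, nor that of Rbbp7 with the prefix as a term (adjusted p = 0.0605). Of the 6 of these genes tested in XEN lines against ESC, Rbbp7 was called, at 0.88 higher (adjusted p = 0.00753) and 323 and 392 FPKM in XENB1 and XEN5, but not without XEN5 (0.74, adjusted p = 0.0872).

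AU022751, which encodes Ezhip, an inhibitor of PRC2, was highest at cXENp1. It stood at 0.573 to 1.67 FPKM in ESC, 2.27 to 10.0 at cXENp1 and 0.304 to 1.95 at cXENp3, and at 0 and 0.0303 in XEN lines. It was 1.71 ± 0.37 higher at cXENp1 than in ESC (SE, adjusted p = 0.0106) and lower at cXENp3 than at cXENp1, at -1.82 ± 0.37 (adjusted p = 0.0201). The second call was lost without KO2.6 (adjusted p = 0.0730) and without KO3.34 (-1.40, adjusted p = 0.148). With the prefix as a term the first difference was 1.68 and was not called (adjusted p = 0.155). E130012A19Rik, the gene of the PRC2.1 subunit Epop, stood at 329 FPKM in KO2.6 ESC against 46.8 to 74.2 in the other ESC libraries, and at 255 and 232 in the KO lines at cXENp3 against 106 and 84.4 in the Zfp281-present lines (1.35 ± 0.72, adjusted p = 0.154). Tceb2, which encodes elongin B, was lower at cXENp1, at -0.70 ± 0.20 (adjusted p = 0.0300), but at -0.09 and not called after quantile normalization, and not called with any line left out.

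The H3K27 demethylase genes Kdm6a and Kdm6b, whose products remove the PRC2 mark, were called in no comparison at cXENp3 or in XEN lines. Kdm6a stood at 6.93 to 11.8 FPKM and Kdm6b at 8.87 to 23.3 FPKM over all 14 libraries. Zfp148, the closest relative of Zfp281, was at 5.28 FPKM (WT3), 6.52 (Rescue3.34), 9.67 (KO3.34) and 11.1 (KO2.6) at cXENp3, 0.73 ± 0.25 higher in KO lines (SE, adjusted p = 0.0378). It was not called after quantile normalization (0.50, adjusted p = 0.0870) or without WT3, KO2.6 or Rescue3.34.

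A list of 14 developmental genes known to be occupied by PRC2 in ESCs was read beside the subunits. At cXENp3, 10 of the 14 could be tested, and of these Hand1 passed the filter only through the KO libraries of that stage (1.65 and 4.25 FPKM) and is left out of the count. Of the other 9, 4 were called higher and 2 lower in KO lines, where 41.9% of all genes were called. Gata4 stood at 1.11 and 0.230 FPKM in WT3 and Rescue3.34 and at 410.2 and 323 in the KO lines, which is 7.83 ± 1.05 higher (SE, adjusted p = 0.000632). Sox17 was higher by 6.89 (adjusted p = 0.000136), Foxa2 by 6.03 (adjusted p = 0.000271) and Gata6 by 5.59 (adjusted p = 0.00210, and 0.0626 without WT3). These 4 endoderm genes also stand on the XEN marker list, so they count under both lists. The neural genes Sox1 (-2.47, adjusted p = 0.0211) and Pax6 (-1.38, adjusted p = 0.00961), named after their values were seen, were the 2 called lower. Sox1 was at 1.71 and 0.179 FPKM in KO lines and 12.1 and 6.51 in the Zfp281-present lines. Neither was called without WT3 or without Rescue3.34, nor Pax6 without KO3.34.

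Cell cycle genes were read as a further list. The 14 on it summed to 1534 (Rescue3.34) and 2287 FPKM (WT3) in the Zfp281-present lines at cXENp3, to 1313 in KO3.34 and 498 in the KO2.6 line, and to 1173 and 1338 in XEN lines. Of the 14, 6 were called lower in KO lines at cXENp3, where 19% of all genes were, and 8 were not called. The largest called differences were those of Mcm6 (-2.12, adjusted p = 0.00775), Mcm3 (-1.97, adjusted p = 0.0119), Top2a (-1.60, adjusted p = 0.0120) and Mcm5 (-1.51, adjusted p = 0.0156). In XEN lines 5 of the 14 were called lower, where 19.7% of all genes were, among them Mcm6 (-1.23, adjusted p = 0.0135) and Mcm3 (-1.22, adjusted p = 0.00471). Mcm6 was not called there with the prefix as a term (-0.54), without XEN5 or without XENB1, nor Mcm3 without XENB1. At cXENp3 Mcm6, Mcm3, Top2a and Mcm5 were not called without WT3, the last 3 not without Rescue3.34 either, and Mcm5 not without KO2.6. Mki67, a marker of dividing cells, differed by 0.09 at cXENp3 (adjusted p = 0.889). The sums at cXENp1 were 969 to 1220 FPKM. Jarid2 was at 33.8 to 42.3 FPKM and Mtf2 at 39.0 to 42.1 at cXENp1 against 6.60 to 7.41 and 10.3 to 15.8 in XEN lines. Suz12 overlapped between them: it stood at 33.3 to 46.8 at cXENp1 and at 33.6 and 39.3 FPKM in XEN lines. The part of cell cycle genes in the lower subunit levels was not tested.

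**Figure D5:**
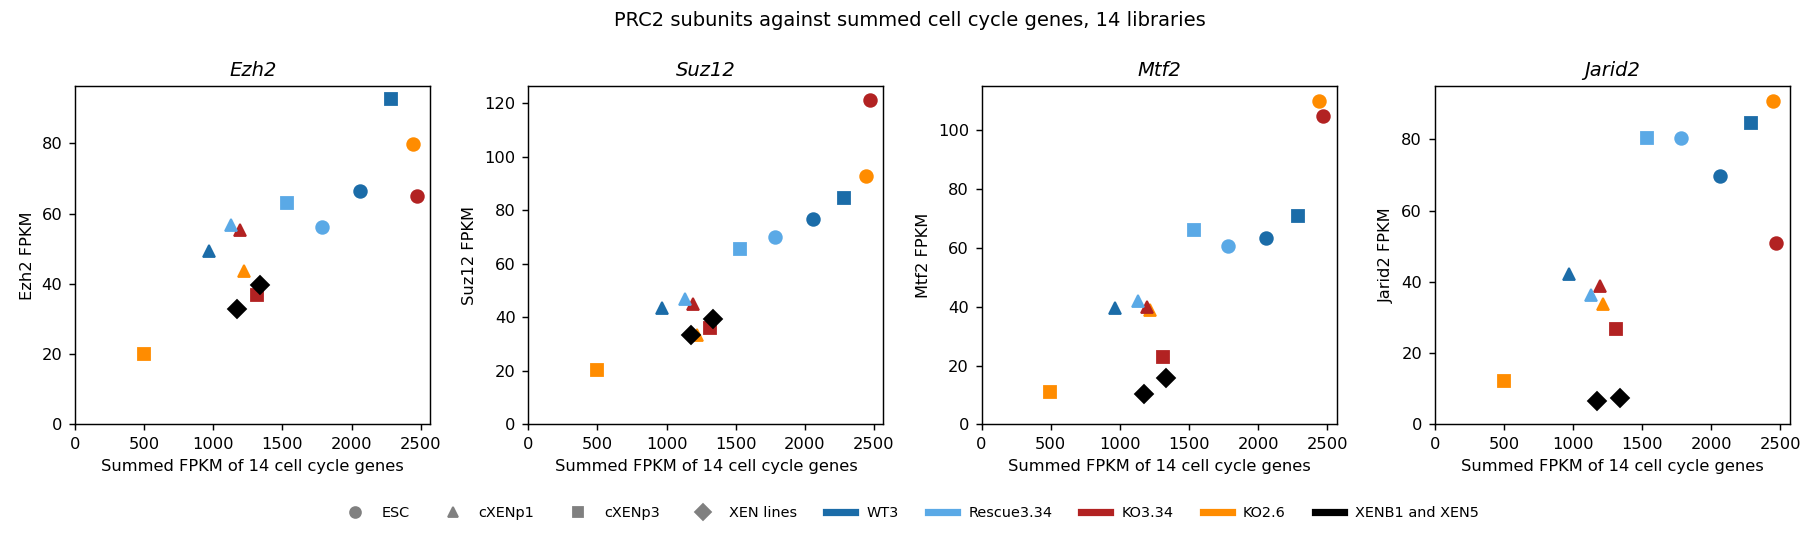
FPKM of Ezh2, Suz12, Mtf2 and Jarid2 (y axes) against the summed FPKM of 14 cell cycle genes (x axes) in the 14 libraries, with stage as the marker shape and line as the colour. Libraries with sums of 969 to 1338 FPKM were those of cXENp1, KO3.34 at cXENp3 and the XEN lines. In this order they held Jarid2 at 33.8 to 42.3, 26.7 and 6.60 to 7.41 FPKM. Mtf2 was at 39.0 to 42.1, 23.0 and 10.3 to 15.8 FPKM, and Ezh2 at 43.6 to 56.8, 37.0 and 32.9 to 39.6. Suz12 overlapped, at 33.3 to 46.8, 35.9 and 33.6 to 39.3 FPKM.

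The pattern over the 14 libraries was also compared between genes, as Pearson's r of log2(FPKM + 1), a description in which the points share lines and stages. Among the members, Jarid2 followed Mtf2 (r = 0.928) and Rbbp4 (0.919), and Ezh2 followed Mtf2 (0.899) and Suz12 (0.894). Eed and Phf19 had r = 0.930 and share the high KO2.6 ESC library. Ezh1 stood apart from Ezh2 (r = -0.151) and was nearest to Aebp2 among the members (0.514). Zfp281 had its highest r with Ezh2 among the members, at 0.332. Among 8980 genes with a mean of at least 5 FPKM, the 3 most like Ezh2 were Actl6a (0.977), Cbx1 (0.973) and Pola1 (0.972), and those most like Jarid2 were Rbmxl2 (0.983), Itpk1 (0.980) and Prpf4 (0.975). For Ezh1 they were Hps4 (0.954), Abcc1 (0.935) and Uck2 (0.933), for Phf19 Csad (0.960), Irf2bpl (0.933) and Poldip2 (0.929), and for Zfp281 Ilkap (0.919), Eif2s3y (0.899) and 5730559C18Rik (0.891).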

How the data were processed

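PolyA RNA from 14 mouse libraries was sequenced in paired reads on a HiSeq4000, per the labels' protocols. The submitters' processing notes name STAR 2.5.3, Cufflinks 2.1.1 and mm9. The authors deposited 1 table of values per gene locus, taken as FPKM from the tools and the values, since its header names no unit. It holds no counts, so depth is unknown and no interval for counting error was computed. No pair of libraries was identical.

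Values were analysed as log2(FPKM + 1). Genes were kept where at least 2 fitted libraries reached 1 FPKM. Models were fitted with limma 3.58.1 (lmFit, eBayes with trend) in R 4.3.3, with Benjamini-Hochberg adjustment over all kept genes in each of 13 comparisons and a threshold of 0.05. Stage comparisons had line as a block, comparisons over the course had stage as a block, and KO and Zfp281-present lines were compared as 6 groups of 2 without a block. XEN lines and ESC were fitted alone, and KO cXENp3 against XEN lines as 7 groups of 2. The code was tested on simulated data.

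The members and lists were chosen with earlier results of these data known. All 10 members are named in each comparison where they bear on it, and of each list up to 4 called genes with the largest change. Table starts were shifted to count from 1. Alternatives covered the pseudocount (0.1), filters (any value above 0; a mean of at least 5 FPKM), quantile normalization, no trend, blocks, the description prefix and each line or stage left out.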

Additional observations from a re-analysis of the deposited data

Results flagged for a closer look

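Among 30 groups of 4 libraries (10 genes at 3 stages), 2 held 1 library far from the others, against a rate of about 1 in 20 by chance alone. Both are the KO2.6 ESC library. Eed stood at 152.4 FPKM there and at 48.7 to 58.0 in the other 3 ESC libraries, and Phf19 at 8.63 FPKM against 1.94 to 2.90. This library is also the 1 ESC library whose description has the prefix XH. The KO3.34 ESC library, the other knockout, was at 58.0 FPKM for Eed and 2.90 for Phf19.

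The difference between KO and Zfp281-present lines itself differed between cXENp3 and ESC for 6 subunits, tested as an interaction in limma: Mtf2 (-2.81), Jarid2 (-1.98), Suz12 (-1.96), Eed (-1.94), Ezh2 (-1.69) and Rbbp4 (-1.21). In 5 of these the KO difference was positive in ESC, though not called, and negative at cXENp3. That of Jarid2 was negative at both. The cell cycle sum ran the same way, at 2444 and 2470 FPKM in KO ESC against 1783 and 2061 in Zfp281-present ESC, and its part in the interaction was not tested.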

How the results depend on the processing

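Of the differences of single genes recomputed under the alternatives, 629 kept their direction and their side of the threshold, 128 kept the direction and lost the call, 15 gained one and 2 changed sign. The sign changes were Ezh1 at cXENp1 against ESC with the prefix as a term (0.14) and Ezh1 at cXENp3 in KO against Zfp281-present lines without Rescue3.34 (-0.19, against a highest value of 1.05 with another line left out). Counts of members called, with 1 line or stage left out, ran from 0 to 2 at cXENp1 against ESC, 0 to 1 at cXENp3 against ESC, and in KO against Zfp281-present lines from 0 to 4 in ESC, 0 to 1 at cXENp1 and 1 to 8 at cXENp3. They ran from 0 to 7 in the cXENp3 interaction, 3 to 7 for XEN lines against ESC and 0 to 2 for KO cXENp3 against XEN lines. For KO against WT and for Rescue against KO they ran from 0 to 1, and were 0 with any stage left out. KO against WT was also at 0 without Rescue3.34. Other settings moved the following counts, and the cause was not tested. At cXENp1 against ESC, 2 became 0 with any value above 0 kept, 0 with a mean of at least 5 FPKM and 1 without trend. The 1 member called in KO against Zfp281-present ESC (Zfp281) became 0 with a pseudocount of 0.1, with any value above 0 kept and with the prefix as a term. At cXENp1 it became 0 with a pseudocount of 0.1, with any value above 0 kept and with a mean of at least 5 FPKM. With a pseudocount of 0.1 it also became 0 in KO against WT and in Rescue against KO, and 1 member (Jarid2) was called in KO cXENp3 against XEN lines. Counts of all genes called moved by more than 1.5 times in 67 of the recomputed cases, for instance at cXENp3 in KO against Zfp281-present lines from 5528 to 1057 without WT3 and 2875 without Rescue3.34. The median of all genes in that comparison went from 0.01 to -0.10 under quantile normalization, and in the interaction from 0.06 to -0.07. The replicate block by line, with an estimated correlation of 0.0371, left the counts at 7 members for cXENp3 and 6 for its interaction and changed no other call of a member. Without the line block in the stage comparisons, 2 members were called at cXENp1 against ESC, where Suz12 lost its call (adjusted p = 0.0505) and Eed gained one (0.0482). The precision of low values, such as those of Phf19, cannot be stated without depth.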
